A study of Nannochloropsis oceanica with 6 samples.

Results

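The 100 nuclear genes described here were higher in both NoPAC4 knockout lines than in wild type (WT) cells of the alga Nannochloropsis oceanica IMET1. They were chosen by their measured CPM, the expected count of a gene per 1000000 expected counts of its library. Of 10493 gene IDs in the series, 10333 were nuclear. Outside the 200 nuclear IDs with the highest mean WT TPM (transcript level per length), 8707 had a mean of at least 5 CPM over the 6 libraries. A further 8 IDs were set aside because they lay among the last 20 IDs of NO06 or NO09 or the first 20 of NO18 or NO30. The remaining 8699 IDs were ranked by log2 of the lowest knockout CPM over the highest WT CPM, with 0.5 CPM added to each, and the first 100 were taken. Their difference from WT is therefore a description, and where calls against WT are counted they come from the values that chose the genes and support nothing about them.

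The samples were 2 libraries of WT and 2 libraries of each of knockout lines 1 and 2, all of strain IMET1. All 3 groups were grown for 5 days at 23 °C in what the study calls low light, unbroken light at 50 µmol photons m-2 s-1, while the growth text gives 25 °C. How the knockouts were made, whether each line is 1 clone, and what NoPAC4 encodes are not given in the sources used here. Nothing in the labels ties the replicates to cultures of their own, and every p-value given here is relative to the spread of these libraries, which may be technical. The libraries held 13956855 to 16311248 expected reads, with the most in WT. In bulk RNA, a change in the make-up of the culture and a change in RNA per cell cannot be told apart.

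N. oceanica is a unicellular marine alga known for storing oil and for making long-chain polyunsaturated fatty acids. Its nuclear genome encodes most proteins of its plastid and mitochondrion, so the levels of nuclear transcripts bear on these organelles too. The nuclear IDs carry no gene name: 0 of the 100 IDs, and 0 of the 10333 nuclear IDs, matched the reference gene table, which holds 160 genes. No role, sequence or pathway is therefore given for any of them. Whether IDs that follow each other within a prefix (NO01 to NO30) also follow each other on a chromosome is not stated in the sources used here.

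All 100 genes had their 4 knockout libraries above both WT libraries, which the choice fixes. Among the eligible IDs 1240 did so, 14.3%, and 908 (10.4%) had all knockout libraries below both WT libraries. The chosen genes ran from 3.68 down to 0.26 on the log2 scale of the choice, with a median of 0.34. The gene at rank 100 stood at 0.262 and the first gene left out at 0.260, so the list ends within a continuous series and not at a gap. The lowest knockout CPM was at least 2 times the highest WT CPM in 4 genes, and at least 1.5 times in 10. Its median over the 100 genes was 1.27 times and its lowest value 1.20 times.

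**Figure D1:**
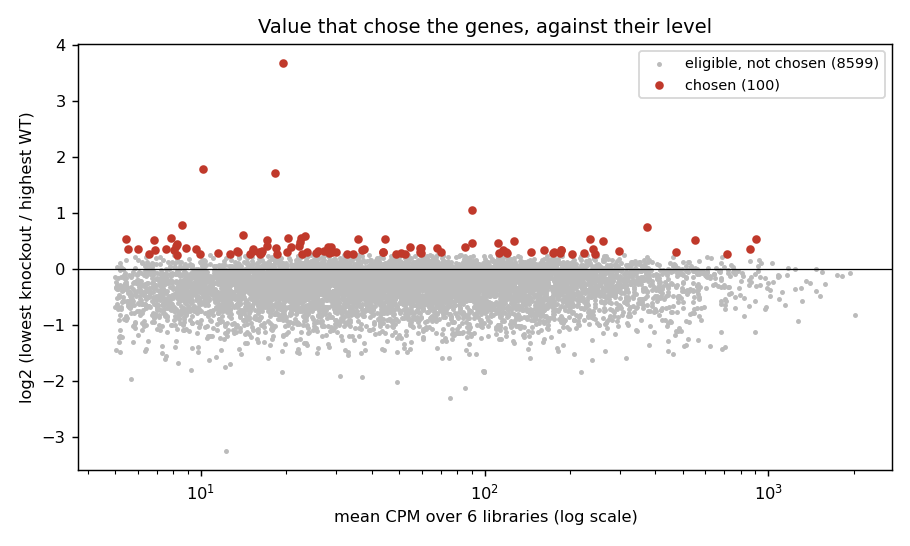
Each point is 1 of the 8699 eligible nuclear IDs, by its mean CPM over 6 libraries (log axis) and by log2 of the lowest knockout CPM over the highest WT CPM, which chose the genes. The 100 chosen genes are coloured; 4 lie above 1 on the vertical axis, and the rest meet the unchosen IDs at 0.26.

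The highest-ranked gene, NO18G02490, had few reads in WT and many more in both lines. It had 22 and 19 reads in WT, 513 and 494 in line 1, and 337 and 326 in line 2. As CPM these were 1.35 and 1.18 in WT, 34.7 and 32.8 in line 1, and 24.1 and 23.2 in line 2. Both lines lay far above WT, and both line 1 libraries lay above both line 2 libraries. The WT mean was 1.27 ± 0.12 CPM (SD, n = 2). The mean of the 4 knockout libraries was 28.7 ± 5.88 CPM (SD), or 22.7 times as much. Per length it had 2.07 and 1.79 TPM in WT, against a median of 26.6 TPM for the 100 genes there. In line 1 its 53.7 and 49.8 TPM stood above the median of the 100 genes, 39.7 TPM, and in line 2 its 36.9 and 34.4 TPM stood around theirs, 36.2 TPM. All its counts were whole.

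NO18G00300, ranked second, had the next largest difference. Its CPM were 1.75 and 2.76 in WT, 17.96 and 15.0 in line 1, and 12.9 and 10.7 in line 2. The 3 groups did not overlap. The WT mean was 2.25 ± 0.72 CPM (SD, n = 2). That of the 4 knockout libraries was 14.1 ± 3.08 CPM (SD), 6.28 times as much. Its counts were not whole (28.5 and 44.3 expected reads in WT), so some of its reads may be shared with other IDs, which was not tested, and its value is uncertain.

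NO13G01090, at rank 3, was also low in WT, at 3.98 and 4.61 CPM in WT, 31.2 and 31.2 in line 1, and 22.5 and 16.4 in line 2, a 5.89-fold difference of the means. NO27G01230, at rank 4, had more reads, at 36.8 and 41.4 CPM in WT, 145 and 139 in line 1, and 91.7 and 87.2 in line 2, 2.96-fold above WT. In both genes the groups did not overlap and line 1 was the highest. NO27G01230 also had counts that were not whole. These 2 genes were named after their values were seen, because with the first 2 they are the 4 genes of the 100 that edgeR's quasi-likelihood test called for both lines against WT.

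The call share over all 9712 tested genes was 0.0824% higher in both lines together, 8 genes. By line, 6 of the 100 were called in line 1, where 0.103% of genes were called higher, and 1 (NO18G02490) in line 2, where 0.0412% were. The choice used these contrasts and both lines share the WT libraries, so the counts say nothing further about the 100 genes. They also depended on single libraries: fewer of the 100 were called when any 1 of the 4 knockout libraries was left out. The share over all tested genes is not given for those fits, so this fall says nothing about the 100 genes. Without WT replicate 1, 73 of the 100 were called, where 29.1% of all tested genes were, and without WT replicate 2, 32 were, where 5.22% were. DESeq2 called 57, where it called 5.54% of all genes in either direction.

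**Figure D2:**
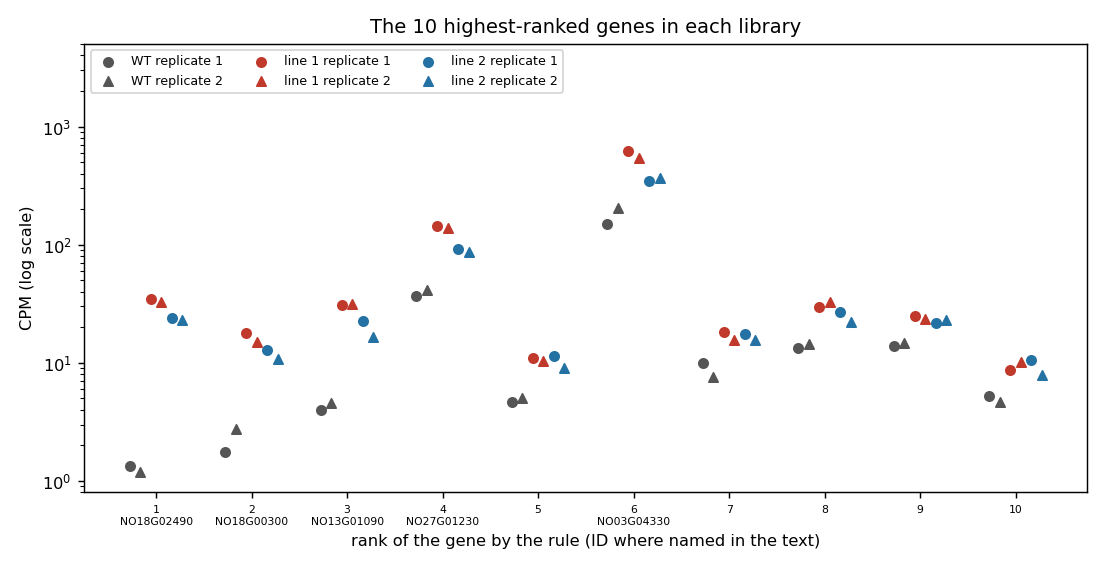
CPM (log axis) of the 10 highest-ranked genes in each of the 6 libraries, coloured by group, with circles for replicate 1 and triangles for replicate 2. In the first 4 genes the 2 line 1 libraries lie above the 2 line 2 libraries, which lie above WT.

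Over the 100 genes the mean knockout CPM was 1.28 to 22.7 times the WT mean, with a median of 1.53. It was at least 3 times the WT mean in 3 genes, at least 2 times in 8, and at least 1.5 times in 53. The count of 8 rose to 20 without WT replicate 1 and to 13 without WT replicate 2, and to 15 without line 2 replicate 2. Taken by line, 16 genes reached 2-fold in line 1 and 6 in line 2, and all 6 were among the 16.

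The fifth-ranked gene shows the lower range of reads. It had 4.68 and 5.01 CPM in WT, 10.98 and 10.4 in line 1, and 11.5 and 8.97 in line 2. Here the lines overlapped each other and both lay above WT. The gene at rank 15 had near-equal values within each group, at 180 and 180 CPM in WT, 265 and 265 in line 1, and 265 and 262 in line 2. Its knockout mean was 1.47 times that of WT, with an SD of 1.34 CPM over the 4 knockout libraries. These values use column sums. After edgeR's TMM scaling factors the WT values of this gene were 179 and 189 CPM, so the closeness depends on the scale. At rank 100 the values were 6.74 and 5.92 CPM in WT, 8.45 and 11.6 in line 1, and 8.67 and 8.18 in line 2, where the gap between the groups was smaller than that between the line 1 replicates.

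**Figure D3:**
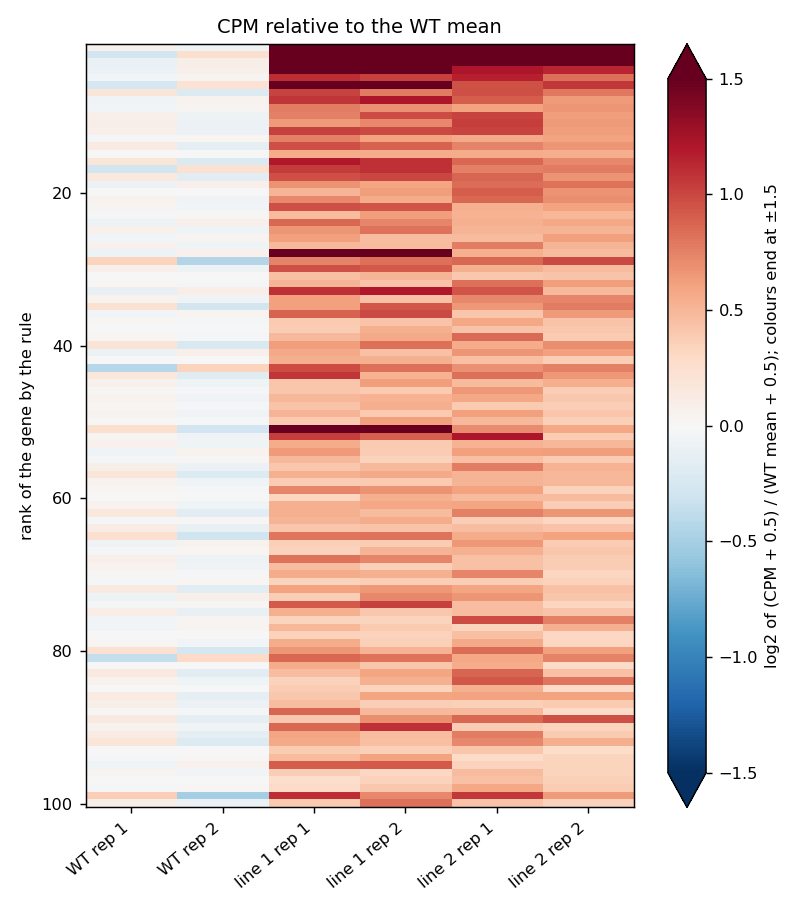
The 100 genes in rank order (rows) in the 6 libraries (columns), as log2 of CPM over the WT mean with 0.5 CPM added to each, with colours ending at 1.5 in each direction. The WT columns stay pale except in a few rows, and all 4 knockout columns are above the WT mean in every row, most strongly in the first 4.

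Summed, the 100 genes held 0.681 and 0.679% of all reads in WT, 1.16 and 1.13% in line 1, and 1.06 and 1.01% in line 2. Line 1 was the highest and WT the lowest. The 5 genes with the most reads, at ranks 16, 41, 95, 17 and 60, held 35.2 to 38.2% of these reads in every library. The most read, at rank 16, had 623 and 471 CPM in WT, 1263 and 1170 in line 1, and 991 and 901 in line 2, 1.98 times the WT mean. That at rank 95 had 495 and 541 CPM in WT, 969 and 985 in line 1, and 659 and 652 in line 2. In it line 1 stood well clear of line 2, and line 2 was 1.27 times WT.

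Level and length were set in part by the choice, which left out the 200 IDs with the highest WT TPM and those under 5 CPM and added 0.5 CPM to each side, so both are given as a description. By level, 36 of the 100 genes had a mean below 20 CPM, 2.00% of the 1802 eligible IDs there. Another 38 lay from 20 to 100 CPM (0.841% of 4517) and 26 at 100 CPM or more (1.09% of 2380). The share of eligible IDs with all knockout libraries above both WT libraries was lowest in the lowest class, at 11.3%, and was 14.5 and 16.01% in the others. Of the IDs not chosen, 20.5% had a mean below 20 CPM. The median fold of the 100 genes was 1.64 below 20 CPM and 1.49 in both other classes. No gene of the 100 had 0 reads in a library, the fewest being 19 in WT and 78 in the knockout libraries.

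Per length, the 100 genes had a median of 32.6 TPM over the 6 libraries, with quartiles of 13.4 and 83.6, against 52.4 TPM for the 8599 eligible IDs not chosen, with quartiles of 28.7 and 96.2. Their length, taken as the reads behind each TPM relative to the median eligible ID, had a median of 1.27, and it was at least 2 in 31 genes against 15.5% of the IDs not chosen. It was below 0.5 in 15 genes against 18.9%. Genes of at least 2 times the median length were thus more frequent among the 100. A length of 28.9 times the median stood alone, at rank 60. No test over genes was made. Counts were not whole in 27 of the 100 genes, near the 26.8% of IDs not chosen, where reads may be shared between gene copies.

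The WT replicates lay closer together in the 100 genes than elsewhere, which the use of the higher WT library favours. The log2 ratio of the WT replicates had an SD of 0.25 over the 100 genes and 0.45 over the eligible IDs not chosen, and the replicates were over 1.5-fold apart in 4 genes against 18.4%. In line 1 the SD was 0.16 against 0.19, and in line 2 it was 0.17 against 0.23. On CPM from column sums, which the choice used, the higher WT library was replicate 1 in 64 of the 100 genes and replicate 2 in 36. It was replicate 2 in 42.3% of the IDs not chosen. This split depends on the scaling and was not counted on other scales. The lowest knockout library, which enters the choice, was line 2 replicate 2 in 44 genes and one of the other 3 libraries in 16 to 21 each.

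The next comparison asked whether the 2 lines differ in these genes. It was fitted over all 9712 tested genes, all 100 among them. The choice did not use this contrast, but it used the knockout values compared here: a high lowest knockout value favours genes that are alike in both lines, and a choice of high values can favour the line that spreads more widely around WT. Among the eligible IDs not chosen, the edgeR log2 change against WT was above 0.5 in 251 for line 1 and in 70 for line 2. No gene of the 100 was called by edgeR's quasi-likelihood test, which called 0% of all tested genes. Limma-voom also called none of the 100, but its share over all tested genes is not given here. At an unadjusted p below 0.05, 16 of the 100 were higher in line 1, where 1.99% of all genes were, and 2 were higher in line 2, where 1.76% were. The edgeR log2 difference between the lines was above 0.5 in 10 genes and below -0.5 in 1. Among the 8599 eligible IDs not chosen it was above 0.5 in 121 and below -0.5 in 136, together 2.99%. The median difference was 0.06 over the 100 genes, 0.00 over all tested genes, and 67 of the 100 were above 0.

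**Figure D4:**
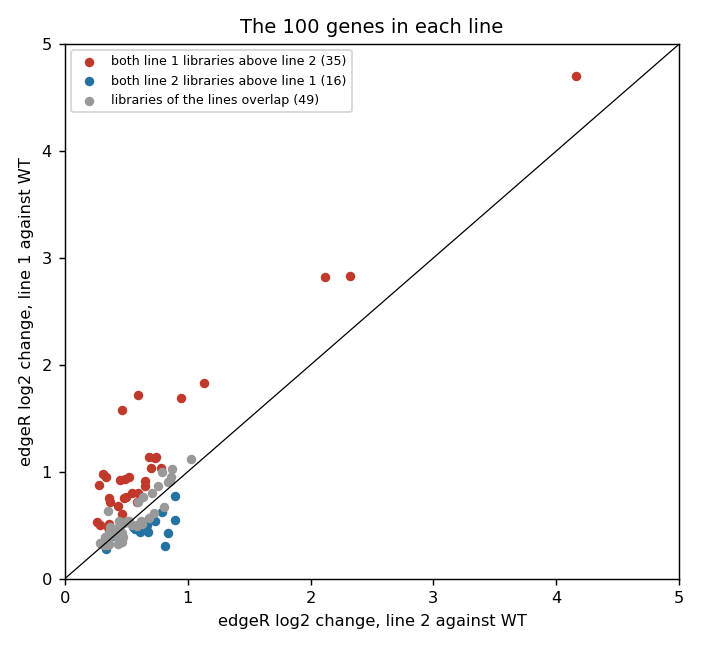
The edgeR log2 change of each of the 100 genes against WT in line 2 (horizontal) and line 1 (vertical), with a line of equal change. The lines share the WT libraries. The 4 genes with the largest change in line 1 lie above the diagonal, and both of their line 1 libraries were above line 2.

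By library, both line 1 values lay above both line 2 values in 35 of the 100 genes, against 21.3% of eligible IDs. Both line 2 values lay above both line 1 values in 16 genes, against 29.4%. The split of the eligible IDs depends on the scaling: after TMM factors line 1 was above in 25.8% and line 2 in 24.7% of them. On that scale the 100 genes divided into 41 and 12. By TPM they divided into 36 and 11, where line 1 was above in 24.1% and line 2 in 25.6% of the eligible IDs. Since the choice took high knockout values, these splits are a description, and the part of the wider spread of line 1 around WT in them was not tested. Among the 10 highest-ranked genes line 1 was above in 7 and line 2 in 0.

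NO08G01230, at rank 51, had the largest difference between the lines. It had 112 and 77.6 CPM in WT, 312 and 321 in line 1, and 155 and 141 in line 2. The line 1 libraries were about equal and far above line 2, which in turn lay above WT. Line 1 stood at 316 ± 6.37 CPM and line 2 at 148 ± 9.60 CPM (SD, n = 2 each), which is 1.12 ± 0.17 on the log2 scale (SE; adjusted p = 0.560 by edgeR). NO03G04330, at rank 6, had 149 and 205 CPM in WT, 623 and 545 in line 1, and 344 and 369 in line 2. The 3 groups did not overlap, and line 1 exceeded line 2 by 0.74 ± 0.20 on the log2 scale (SE; adjusted p = 0.914 by edgeR).

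In the other direction, NO01G02390, at rank 76, had 42.4 and 44.8 CPM in WT, 55.1 and 55.3 in line 1, and 86.5 and 73.9 in line 2. Line 2 lay clear of line 1, and line 1 minus line 2 was -0.51 ± 0.13 on the log2 scale (SE; adjusted p = 0.914 by edgeR). NO14G00050, at rank 32, had 64.7 and 61.7 CPM in WT, 90.01 and 85.4 in line 1, and 113 and 98.0 in line 2, where line 1 minus line 2 was -0.24 ± 0.12 on the log2 scale (SE; adjusted p = 0.914 by edgeR). Their differences were smaller than those of the 2 genes that were higher in line 1. The gene at rank 15, by contrast, was level between the lines, which were 0.04 ± 0.11 apart on the log2 scale (SE).

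This fit takes 1 spread from all 3 groups, and the WT replicates lay farther apart than those of the lines. With only the 4 libraries of the lines in the fit, 3 of the 100 were called, all higher in line 1, where 0.0829% of tested genes were called higher. They were NO08G01230 (edgeR adjusted p = 0.00255), NO27G01230 (edgeR adjusted p = 0.0239) and NO09G03810 (edgeR adjusted p = 0.0122). The last, at rank 28 and named after its values were seen, had 8.89 and 9.85 CPM in WT, 27.7 and 29.5 in line 1, and 13.8 and 13.2 in line 2. With all libraries in the fit its lines were 1.11 ± 0.15 apart on the log2 scale (SE; adjusted p = 0.404 by edgeR). The same 3 genes were called without WT replicate 1 and without WT replicate 2, where 0.123% of tested genes were called in each fit. DESeq2 called these 3 and NO10G02260, the gene at rank 95, where it called 0.156% of genes. Leaving out any 1 of the line libraries leaves 1 line with a lone library assumed to vary like the others. In such fits edgeR's quasi-likelihood test did not call these genes. The share over all tested genes is not given for those fits, so this loss cannot be read as a result about these genes.

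The 100 genes came from 28 of the 30 ID prefixes, with 0 from NO23 and NO26. They made up 1.15% of all eligible IDs and at most 2.05% of those of any prefix other than NO18. NO18 held 8 of them among 204 eligible IDs, 3.92%, and both of the highest-ranked genes. The other eligible IDs of NO18 had a median log2 ratio of knockout to WT means of 0.01, against 0.06 for all eligible IDs not chosen, and 15.7% of its eligible IDs had all knockout libraries above WT, near the 14.3% of all. The first 20 IDs of NO18 were outside the choice.

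**Figure D5:**
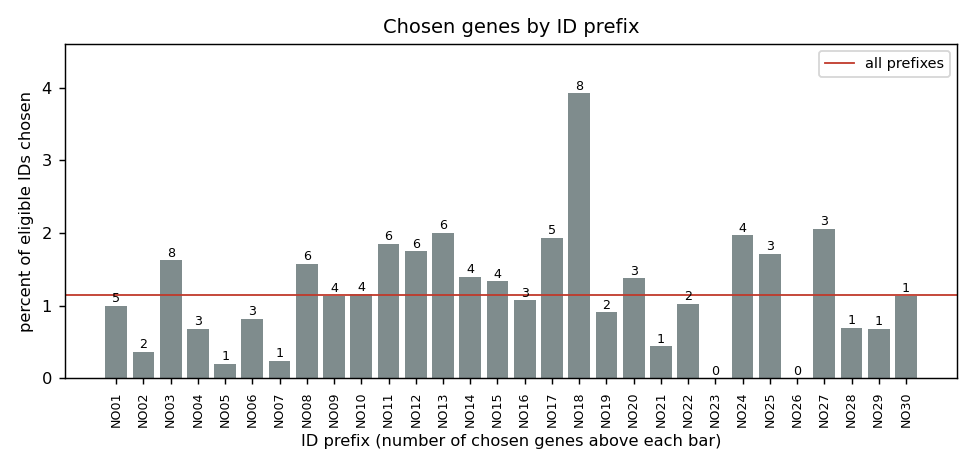
The share of eligible IDs of each prefix that is among the 100 genes (bars), with the number of genes above each bar and the share over all prefixes as a line. NO18 stands highest, with 8 genes and 3.92%.

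Of the 8 genes of NO18, 5 lay among the last 51 of its 271 IDs, a stretch picked after their positions were seen. The genes at ranks 30 and 22 are direct neighbours in the ID order. That at rank 30 had 39.8 and 35.6 CPM in WT, 74.4 and 71.8 in line 1, and 54.8 and 52.7 in line 2. That at rank 22 had 15.4 and 14.6 CPM in WT, 30.0 and 29.4 in line 1, and 21.9 and 23.1 in line 2. The pair had the same order of groups and like differences between the lines, 0.47 ± 0.11 and 0.43 ± 0.13 on the log2 scale (SE). The gene 2 IDs on, at rank 88, stood at 1.51 times WT, and its lines were 0.35 ± 0.22 apart on that scale (SE).

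In all, 4 pairs of the 100 genes were direct neighbours in the ID order. In NO12, the genes at ranks 8 and 24 stood at 2.00 and 1.61 times WT, with log2 differences between the lines of 0.39 ± 0.15 and 0.27 ± 0.13 (SE). In the pairs of NO03 and NO27 the lines lay far apart in 1 gene and close together in its neighbour. NO03G04330 stood at 2.66 times WT and its neighbour at 1.49 times, with log2 differences between the lines of 0.74 and 0.04. NO27G01230 stood at 2.96 times WT and its neighbour at 1.39 times, with log2 differences between the lines of 0.70 and 0.04. Another 166 direct neighbours with at least 5 CPM were not among the 100, and 39 of these (23.5%) had all knockout libraries above both WT libraries, against 13.3% of all eligible IDs not chosen. The median log2 ratio of these neighbours was 0.07 and that of all eligible IDs not chosen 0.06. The neighbours were not limited to eligible IDs, so the compared sets are not fully alike. The kit named in the labels, NEBNext Ultra RNA, does not mark strand, so reads of overlapping neighbours cannot be told apart.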

How the data were processed

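The authors deposited expected counts per gene, and TPM for the same genes and 6 libraries. Of the counts, 20.1% differed from a whole number by more than 1e-06. STAR and edgeR are named without versions, per the submitters' processing notes; the counting program, build and annotation are not given in the sources used here. RNA input was 2 µg per sample, per the labels' protocols. The 100 genes, the rule and the lists were chosen with earlier results of these data known.

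Counts were rounded and tested with edgeR 4.0.16 (quasi-likelihood, robust, TMM factors, group filter on low counts) in R 4.3.3. Of the genes, 781 fell to the filter and 9712 were tested, in a single model of the 3 groups that left 3 residual degrees of freedom. Calls are Benjamini-Hochberg adjusted p below 0.05 over all tested genes, and SE come from the test statistic. Printed CPM use column sums, and edgeR log2 values follow TMM. DESeq2 1.42.0 and limma 3.58.1 served as alternatives. The code was tested on simulated data.

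Named genes were the 2 with the largest value of the choice, and for each direction between the lines the 2 largest log2 differences at a mean of at least 20 CPM with lines that do not overlap. Other IDs named were chosen after their values were seen.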

Additional observations from a re-analysis of the deposited data

How the results depend on the processing

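Which 100 IDs the rule chose depended on the WT libraries: 17 of the 100 were still chosen without WT replicate 1 and 36 without WT replicate 2, against 62 to 87 without any 1 knockout library. Without a WT replicate the other alone sets the WT value, while without a knockout library several remain. These counts are therefore not on equal terms. With group means in place of the extremes 52 were still chosen, and with a minimum of 20 CPM 64, all that met it. Other constants, scales and filters kept 85 to 99. Of the 100 genes, those called for both lines against WT numbered 57 with DESeq2, 18 without a filter on low counts, 30 with a replicate block, and 1 to 73 when a library was left out. For line 1 they numbered 39 with DESeq2, 3 with limma on TPM at either constant, and 1 to 68 when a library was left out. For line 2 they numbered 26 with DESeq2, 2 with upper-quartile factors, column sums or log2(TPM + 0.1), and 1 to 49 when a library was left out. Between the lines 0 became 4 with DESeq2, 3 with the lines alone, and 0 to 3 when a library was left out. The 2-fold counts without a library and the line counts on TMM and TPM scales were added after seeing the data. For fits whose share of calls over all tested genes is not given above, the counts of called genes cannot be set against it. Those against WT come from the contrasts that chose the genes, so they describe the fits and say nothing about the 100 genes. The cause of these shifts was not tested. NO18G00300 was not called with limma on TPM or without any 1 knockout library. The 6 genes named by rule kept their direction under every alternative run. Whether replicate numbers pair the samples is not settled. Deviations of libraries with the same number in their titles correlated at 0.10 between the lines, 0.04 between line 1 and WT, and 0.33 between line 2 and WT. The numbers in titles and descriptions differ for 3 of 6 samples, so these correlations cannot decide it. The counts of reads limit the weakest genes, with 19 reads at the fewest.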
